A study of Mus musculus with 8 samples.

Results

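The 10 genes described here encode proteins that endothelial cells carry at their junctions and on their surface: Cdh5, Pecam1, Cldn5, Esam, Emcn, Icam2, Plvap, Ecscr, Robo4 and Cd34. Accessible chromatin was measured at them by ATAC-seq, in which a transposase cuts open DNA, in cells of mouse embryoid bodies, which are aggregates of differentiating embryonic stem cells. A region of the deposited table was taken as a member if 1 of the 10 genes was the nearest protein-coding gene span to its midpoint, with the midpoint inside the span or within 100 kb of it (build mm10). This gave 110 of 168842 regions, each 401 bp wide, with 36 regions for Cdh5, 18 for Pecam1, 14 for Cldn5, 12 for Cd34, 10 for Emcn, 7 for Plvap, 4 each for Esam and Robo4, 3 for Icam2 and 2 for Ecscr. Nearness does not show that a region acts on the gene. Of the 7 Plvap regions, 3 also lay inside the span of another gene.

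The libraries formed 4 groups of 2, all from day 4 embryoid bodies sorted for FLK1, the VEGF receptor encoded by Kdr. WT DP and WT SP are wild-type cells of the A2lox.Cre line, PDGFRalpha+FLK1+ and PDGFRalpha-FLK1+ respectively. The KO DP group holds PDGFRalpha+FLK1+ cells from a line with Etv2 knocked out. PDGFRalpha-FLK1+ cells from the iETV2 line make up OE SP, where doxycycline at 2 µg/ml from day 2.5 induced Etv2, an ETS transcription factor needed for endothelial and blood development. No wild-type or knockout library is labelled as treated with doxycycline, so effects of line, genotype and doxycycline cannot be told apart. Nothing in the labels says that a group's libraries are separate cultures, and p-values therefore measure only a spread between samples that may be technical. The sorted cells are a bulk sample, so a larger share of cells of a type and more open chromatin per cell cannot be told apart.

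Endothelial cells are joined by adherens junctions, in which VE-cadherin (Cdh5) binds the VE-cadherin of the next cell, and by tight junctions, in which claudin-5 (Cldn5) seals the gap between cells. Immunoglobulin-type adhesion proteins (Pecam1, Esam, Icam2) lie at or near the cell borders. Sialomucins (Cd34, Emcn) coat the surface, and Plvap forms the diaphragms of fenestrae and caveolae. ETS factors bind DNA at a GGAA core, and enhancers and promoters of endothelial genes commonly hold such cores.

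Each library held 12477601 to 18853733 reads in regions, and the member regions held a median of 40.0 reads per library. All values below are normalized reads in a region as deposited, given in the order replicate 1 and replicate 2. As a check of the knockout label, the region inside Etv2 on chromosome 7 at 30634628 to 30635028 measured 563 and 611 in the WT DP libraries, 475 and 493 in the WT SP libraries, 425 and 645 in the OE SP libraries, and 0.840 and 0 in the KO DP libraries. The OE SP values spanned those of both wild-type groups, so the region checks neither the other labels nor the induction. The OE SP libraries differed more from each other than those of the other groups. The median absolute difference between replicates over the members was 0.40 on the log2(value + 5) scale in OE SP, against 0.17 in WT DP, 0.20 in WT SP and 0.19 in KO DP. OE SP replicate 2 was the higher one in 79 of 109 members, and over all regions its median lay 0.20 above replicate 1.

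RefSeq promoters of build GRCm38.p6 were held for 4 of the 10 genes. All 4 are shown, whatever their values. In OE SP against WT SP the region at the start rose for Robo4 and Emcn, rose slightly for Cd34 and did not pass the test for Cldn5. Those of Cd34 and Cldn5 run from 250 bases before the start of the gene span to 50 after it. Those of Robo4 and Emcn begin less than 250 bases before the span start and reach further than 50 past it. All are given 5′ to 3′ on the plus strand. Capitals mark GGAA cores read on either strand (TTCC is the same core on the other strand).
Robo4 chr9:37401722-37402021: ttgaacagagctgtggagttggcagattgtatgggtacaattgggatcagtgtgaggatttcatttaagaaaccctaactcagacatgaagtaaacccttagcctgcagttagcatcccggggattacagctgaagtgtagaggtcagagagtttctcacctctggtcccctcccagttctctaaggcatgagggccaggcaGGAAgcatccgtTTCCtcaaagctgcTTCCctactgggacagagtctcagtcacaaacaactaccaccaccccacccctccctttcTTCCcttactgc
Emcn chr3:137340828-137341127: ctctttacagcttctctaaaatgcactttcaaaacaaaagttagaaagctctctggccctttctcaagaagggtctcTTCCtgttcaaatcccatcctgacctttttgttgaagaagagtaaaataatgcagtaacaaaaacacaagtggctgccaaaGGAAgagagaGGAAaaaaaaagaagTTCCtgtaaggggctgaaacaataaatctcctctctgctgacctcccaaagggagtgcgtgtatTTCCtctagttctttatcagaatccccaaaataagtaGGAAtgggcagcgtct
Cd34 chr1:194938571-194938870: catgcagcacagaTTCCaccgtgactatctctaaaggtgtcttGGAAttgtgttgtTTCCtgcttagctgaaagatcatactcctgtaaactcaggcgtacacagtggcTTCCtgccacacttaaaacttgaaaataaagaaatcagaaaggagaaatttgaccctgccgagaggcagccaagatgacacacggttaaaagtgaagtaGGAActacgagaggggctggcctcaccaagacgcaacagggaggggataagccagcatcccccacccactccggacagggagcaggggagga
Cldn5 chr16:18776597-18776896: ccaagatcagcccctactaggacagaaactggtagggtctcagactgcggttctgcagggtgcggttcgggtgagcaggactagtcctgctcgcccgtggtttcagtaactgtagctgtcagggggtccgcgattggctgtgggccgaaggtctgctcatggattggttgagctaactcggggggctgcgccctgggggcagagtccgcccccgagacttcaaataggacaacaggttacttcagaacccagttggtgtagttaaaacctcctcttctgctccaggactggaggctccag

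The GGAA core was found 4 times in the Robo4 promoter, 6 times in that of Emcn, 5 times in that of Cd34 and 0 times in that of Cldn5. As many or more were held by 46.3%, 15.7% and 28.6% of the 32851 promoters of the table for the first 3 genes, and the median promoter held 3. The share of promoters with 0 cores was not computed, so how unusual the count for Cldn5 is cannot be said. Longer ETS letters were searched on both strands too. CCGGAA (in 14.9% of all promoters) and AGGAAGT (9.35%) were in none of the 4, and ACAGGAA (8.67%) was in Emcn alone, at 2 places, each overlapping a TTCC in capitals. The GATA letters AGATAA, held by 11.2% of all promoters, were in none of the 4. The counts of GGAA were added after the sequences were read, and a match describes letters, not binding.

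Many regions at these genes were more open in OE SP than in WT SP, fewer differed between the wild-type populations, and few were called in the knockout line. Of the 109 members tested (1 Emcn region fell under the mean of 10), 44 rose and 19 fell in OE SP against WT SP, where 16.6% of all regions rose and 31.9% fell. Some of these rises were of low regions that reached the mean of 10 only through OE SP. They include those at Emcn and Robo4 described below and a region each of Cdh5 (104117850) and Cldn5 (18766347). In WT SP against WT DP, 15 rose and 6 fell, beside 6.2% and 8.12% of all regions. In KO DP against WT DP, 1 rose and 5 fell, beside 1.72% and 2.21% of all regions. A call is a Benjamini-Hochberg adjusted p under 0.05 over all 167573 regions tested with limma. The median log2 change of the members was 0.27 in OE SP (all regions -0.22), 0.22 in WT SP (0.11) and -0.12 in KO DP (-0.07). WT DP serves as the reference in both WT SP and KO DP comparisons, and WT SP enters a pair of comparisons, so these are not independent.

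The balance over all regions depends on scaling. Of all calls in OE SP, 34.2% were rises as deposited and 47.9% after median-of-ratios rescaling, where the median over all regions was -0.0037 in place of -0.22. The members gave 52 rises and 16 falls there, beside 23.3% and 25.4% of all regions. In WT SP the share of rises was 43.3% as deposited and 25.8% after rescaling on the 10000 highest regions. After that rescaling the members had 13 rises and 9 falls, beside 4.3% and 12.4% of all regions. In KO DP the share of rises was 43.8% and 54.2% under the same settings. The members had 3 rises and 6 falls in KO DP after the rescaling, beside 3.12% and 2.64% of all regions. All groups share 1 estimate of error in these tests, OE SP with its larger spread included: fitted on the compared groups alone, WT SP had 30 rises and 13 falls among the members, beside 22.4% and 15.5% of all regions, and KO DP had 10 and 16, which is near the 8.89% and 13.1% of all regions. With the assignment of regions to genes kept and the fit, scaling, filter or libraries changed, 2 of the 15 rises and 0 of the 6 falls in WT SP kept their call, as did the 1 rise and 0 of the 5 falls in KO DP, and 33 of the 44 rises and 8 of the 19 falls in OE SP. Each WT SP call that was lost was lost on leaving out at least 1 wild-type library, among other settings.

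**Figure D1:**
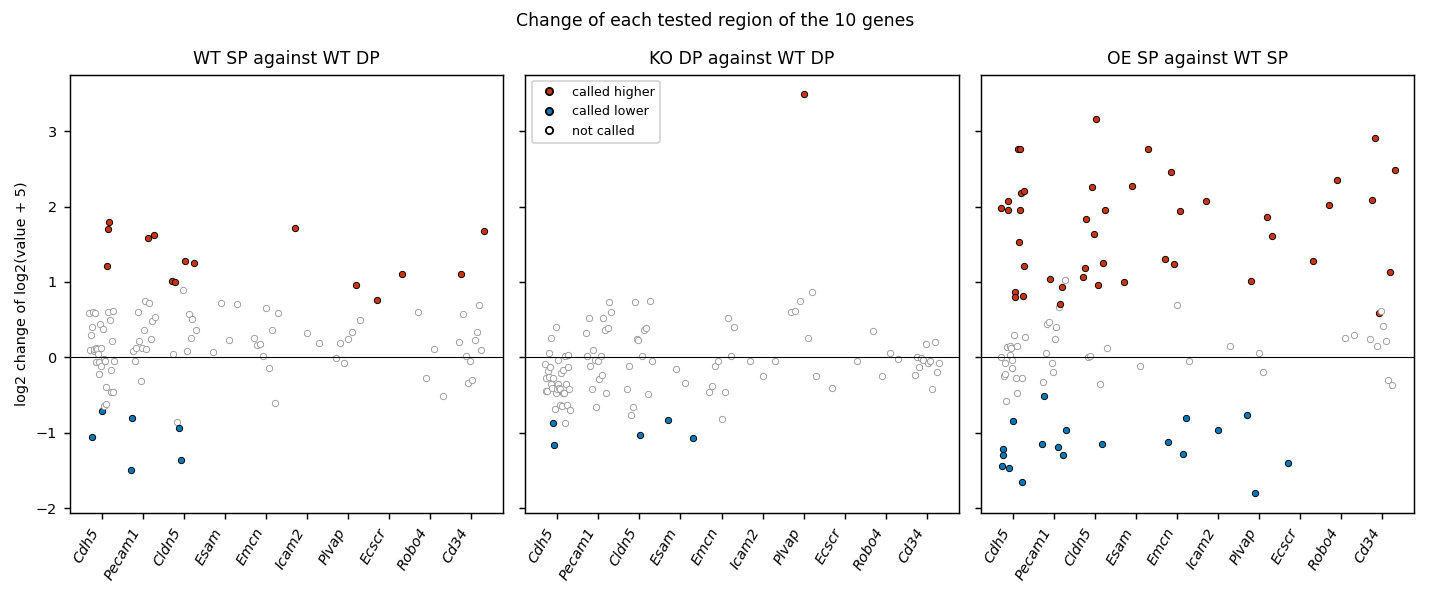
Log2 change of log2(value + 5) for each of the 109 tested regions (points, in genome order within a gene) in the 3 comparisons, red for regions called higher, blue for regions called lower and white for those not called. Each of the 10 genes has at least 1 red point in OE SP against WT SP, and 7 of them have blue points too.

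Cdh5 encodes VE-cadherin, the cadherin of endothelial adherens junctions, on chromosome 8 from 104101613 to 104144504. At its low-coordinate end, the region 104101387 to 104101787 measured 31.1 and 15.3 in the WT DP libraries, 101 and 78.3 in the WT SP libraries, 23.5 and 21.4 in the KO DP libraries, and 489 and 819 in the OE SP libraries. The KO DP values lay within the range of the WT DP ones, while the WT SP and OE SP groups each lay apart from the others. The change was 1.80 (SE 0.30, adjusted p = 0.00265) in WT SP against WT DP and 2.76 (SE 0.30, adjusted p = 2.62e-05) in OE SP against WT SP. The first of these calls was lost without WT SP replicate 1.

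The rises of Cdh5 formed a run on the flank next to that end. Here and below, before a gene means on the side of lower coordinates and beyond it on the side of higher ones. The region 5777 bp before the gene measured 27.2 and 16.2 in the WT DP libraries, 53.9 and 57.5 in the WT SP libraries, 13.4 and 14.3 in the KO DP libraries, and 332 and 501 in the OE SP libraries (2.77 in OE SP, adjusted p = 1.19e-05). The region 4758 bp before it went from 26.2 and 31.4 in the WT DP libraries to 113 and 96.2 in the WT SP libraries and 221 and 439 in the OE SP libraries, and its call in WT SP (1.70) held in every alternative fit tried. The region 2234 bp before the gene was called in OE SP (1.95) but not in WT SP (0.61). Inside the gene, the region 2068 bp from that end rose in OE SP from 23.4 and 19.8 to 92.6 and 142 (2.17). In all, 4 consecutive regions up to the low-coordinate end and the first one inside the gene were higher in OE SP in each library than in any library of the other groups.

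Other Cdh5 regions went the other way. A region inside the gene, 6646 bp from the low-coordinate end, fell from 110 and 138 in the WT SP libraries to 31.4 and 40.7 in the OE SP libraries (-1.65). Of the 36 Cdh5 regions, 13 rose and 6 fell in OE SP, and 5 of the falls lay 32793 to 92562 bp before the gene. The one at 104015239 also fell from WT DP to WT SP (78.6 and 72.8 to 39.7 and 28.7, change -1.05) and was lowest in OE SP at 16.8 and 6.57. Its call in WT SP was lost with a pseudocount of 1 and on leaving out any wild-type or KO DP library. A further distal region, 58987 bp before the gene at 104042426, measured 79.6 and 68.3 in the WT DP libraries, 80.4 and 80.3 in the WT SP libraries, 45.3 and 32.1 in the KO DP libraries, and 351 and 355 in the OE SP libraries. It was called in OE SP (2.07, adjusted p = 1.41e-05) and in KO DP (-0.87, adjusted p = 0.0339), and the latter call was lost with DESeq2 and on leaving out any wild-type or KO DP library.

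**Figure D2:**
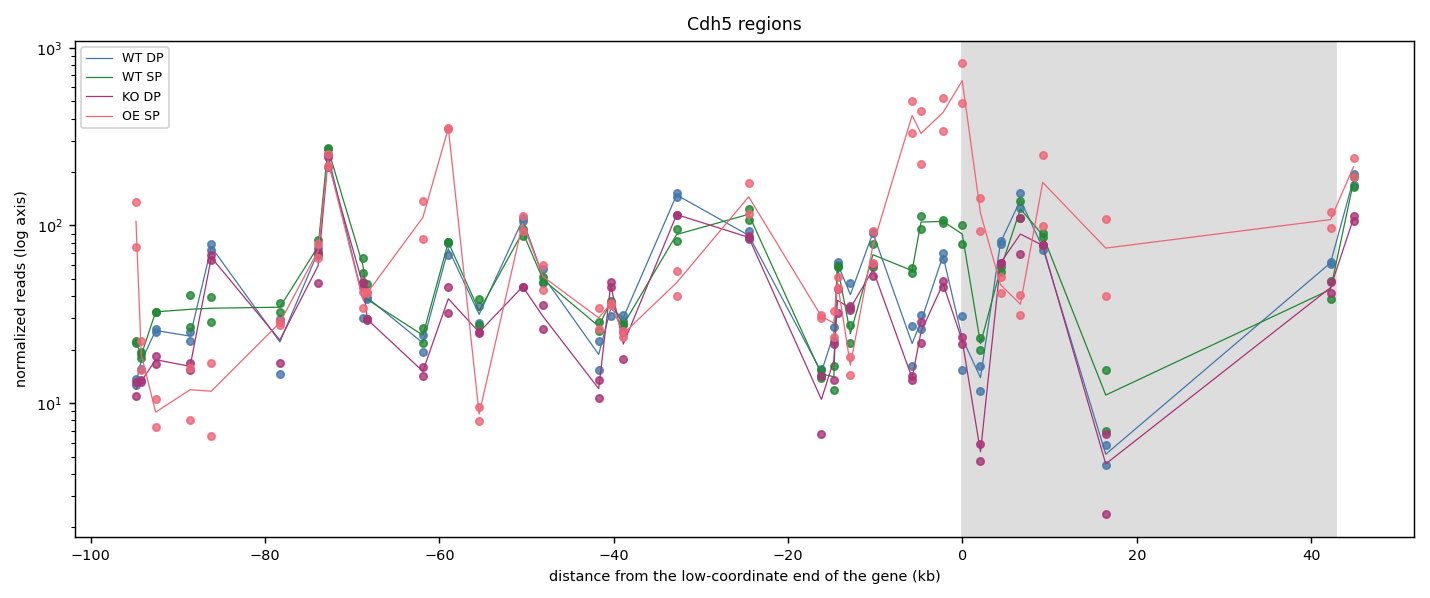
Normalized reads (log axis) of the 36 Cdh5 regions by distance in kb from the low-coordinate end of the gene, with the gene in grey, points for libraries and lines joining group means. OE SP stands above the other groups over the regions from 5777 bp before the gene to the first one inside it, and its libraries reach 489 and 819 at the low-coordinate end.

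Pecam1 (CD31), an immunoglobulin-type adhesion protein of endothelium, platelets and leukocytes, lies on chromosome 11 from 106654213 to 106715281. At its high-coordinate end, the region 106715058 to 106715458 measured 34.0 and 29.6 in the WT DP libraries, 105 and 112 in the WT SP libraries, 52.1 and 60.6 in the KO DP libraries, and 120 and 416 in the OE SP libraries. WT SP lay above WT DP (1.63, SE 0.40, adjusted p = 0.0191), a call lost on leaving out any wild-type or KO DP library. The OE SP libraries differed from each other by more than replicate 1 differed from WT SP, and the change of 1.02 was not called (adjusted p = 0.0522). It was 1.89 without OE SP replicate 1, and called there. It was also called under every rescaling, with edgeR and DESeq2, with a pseudocount of 20 and with the replicate block (1.02, adjusted p = 0.0343). In KO DP the change of 0.74 was called only without an OE SP library or with the compared groups alone.

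Across its 18 regions Pecam1 had 3 rises and 5 falls in OE SP, near the shares of all regions (16.6% and 31.9%), and 2 of each in WT SP. A region inside the gene, 8858 bp from the high-coordinate end, rose from 13.6 and 14.4 in the WT DP libraries to 53.9 and 49.6 in the WT SP libraries (1.58). That call was lost on leaving out any wild-type library. The region 17461 bp before the gene ran the opposite way, from 64.1 and 61.1 in the WT DP libraries and 73.9 and 85.6 in the KO DP libraries to 22.4 and 15.9 in the WT SP libraries and 8.02 and 3.94 in the OE SP libraries. It was called lower in WT SP (-1.50, adjusted p = 0.00329, lost without WT SP replicate 2) and in OE SP (-1.15, adjusted p = 0.00311, lost with DESeq2). Inside the gene, 1334 bp from the high-coordinate end, a region fell in OE SP from 81.4 and 82.3 to 29.2 and 31.5 (-1.30, adjusted p = 0.000215). That fall lay nearer to the high-coordinate end than any of the 3 rises, of which the nearest lay 4658 bp from it.

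Icam2 encodes an adhesion protein that binds the leukocyte integrin LFA-1, on chromosome 11 from 106377656 to 106388139. It had 3 regions and none within 1 kb of an end. The region inside the gene at 106382554 to 106382954 measured 25.2 and 24.3 in the WT DP libraries, 96.7 and 89.2 in the WT SP libraries, 25.2 and 22.6 in the KO DP libraries, and 365 and 453 in the OE SP libraries. The WT DP and KO DP values overlapped, and WT SP and OE SP each stood apart. This was the member with the lowest adjusted p in WT SP (1.72, SE 0.20, adjusted p = 0.000411), and the calls in WT SP and in OE SP (2.07, adjusted p = 1.29e-05) held in every alternative fit tried. Of the other regions, the one 1631 bp from the gene fell in OE SP from 72.3 and 81.3 to 27.0 and 49.9 (-0.96), and the one 3864 bp away was not called in any comparison. The call of that fall was lost with DESeq2 and without WT SP replicate 2.

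Cldn5 encodes claudin-5, the main claudin of endothelial tight junctions, on chromosome 16 from 18776847 to 18778262. The region at its start, 18776573 to 18776973, which holds all 300 bases of the promoter shown, was open in all groups. It measured 238 and 195 in the WT DP libraries, 283 and 275 in the WT SP libraries, 205 and 213 in the KO DP libraries, and 297 and 313 in the OE SP libraries. None of the comparisons called it (changes 0.36, -0.04 and 0.13), although OE SP passed with edgeR (0.38 on edgeR's own log2 scale, adjusted p = 0.0343) and once values were rescaled by median of ratios (0.37, adjusted p = 0.0408). In WT SP it was called with the compared groups alone (adjusted p = 0.00511).

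The changes at Cldn5 lay on its flank. A region 43525 bp before the gene, 18733122 to 18733522, measured 19.4 and 26.0 in the WT DP libraries, 63.1 and 60.5 in the WT SP libraries, 7.56 and 9.51 in the KO DP libraries, and 533 and 656 in the OE SP libraries. No groups overlapped there, and the order from KO DP to WT DP, WT SP and OE SP held for each library. The region had the largest rise of any member in OE SP (3.16, SE 0.22, adjusted p = 3.73e-06) and was called in WT SP (1.28, adjusted p = 0.00294, lost without WT DP replicate 1). It was also called lower in KO DP (-1.03, adjusted p = 0.0223), a call lost with DESeq2, with a pseudocount of 20 and on leaving out any wild-type or KO DP library. Nearer the gene, the region 2704 bp before it went from 18.4 and 22.5 in the WT DP libraries to 48.9 and 62.5 in the WT SP libraries and 196 and 268 in the OE SP libraries, with KO DP at 36.9 and 38.0. Of the 14 Cldn5 regions, 9 rose and 1 fell in OE SP.

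A further Cldn5 region did not follow that order. At 18724708, 51939 bp before the gene, values fell from 55.3 and 58.4 in the WT DP libraries to 18.3 and 19.8 in the WT SP libraries (-1.36, adjusted p = 0.00597) and were 140 and 86.7 in the OE SP libraries, above WT SP (2.26, adjusted p = 4.27e-05). The fall in WT SP was lost on leaving out any wild-type library.

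Esam, an adhesion protein of endothelial tight junctions and platelets, lies on chromosome 9 from 37528089 to 37538319, with regions near both ends. The region near the high-coordinate end, 37537782 to 37538182, measured 19.4 and 18.9 in the WT DP libraries, 32.6 and 36.7 in the WT SP libraries, 5.88 and 7.13 in the KO DP libraries, and 203 and 340 in the OE SP libraries. No groups overlapped, in the same order as at the distal Cldn5 region. The change was 2.76 in OE SP (adjusted p = 1.24e-05) and -1.07 in KO DP (SE 0.26, adjusted p = 0.0415). At the low-coordinate end, 37527827 to 37528227, KO DP was again lowest at 73.0 and 51.1, against 113 and 112 in the WT DP libraries, 119 and 117 in the WT SP libraries, and 232 and 251 in the OE SP libraries (-0.83 in KO DP, adjusted p = 0.0366, and 1.00 in OE SP, adjusted p = 0.00119).

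The KO DP calls at Esam were lost with DESeq2 and on leaving out any wild-type or KO DP library, and that at the high-coordinate end also with edgeR and with a pseudocount of 20. The third region near an end of Esam, at 37528592, rose in OE SP from 37.7 and 37.7 to 167 and 240 (2.27). The region inside the gene at 37530564 had the highest values of the 4, between 248 and 424 in all 8 libraries, and was not called in any comparison. No Esam region was called in WT SP against WT DP, although those at 37528592 and 37537782 (both 0.71) were after quantile normalization, with the compared groups alone and without either OE SP library.

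**Figure D3:**
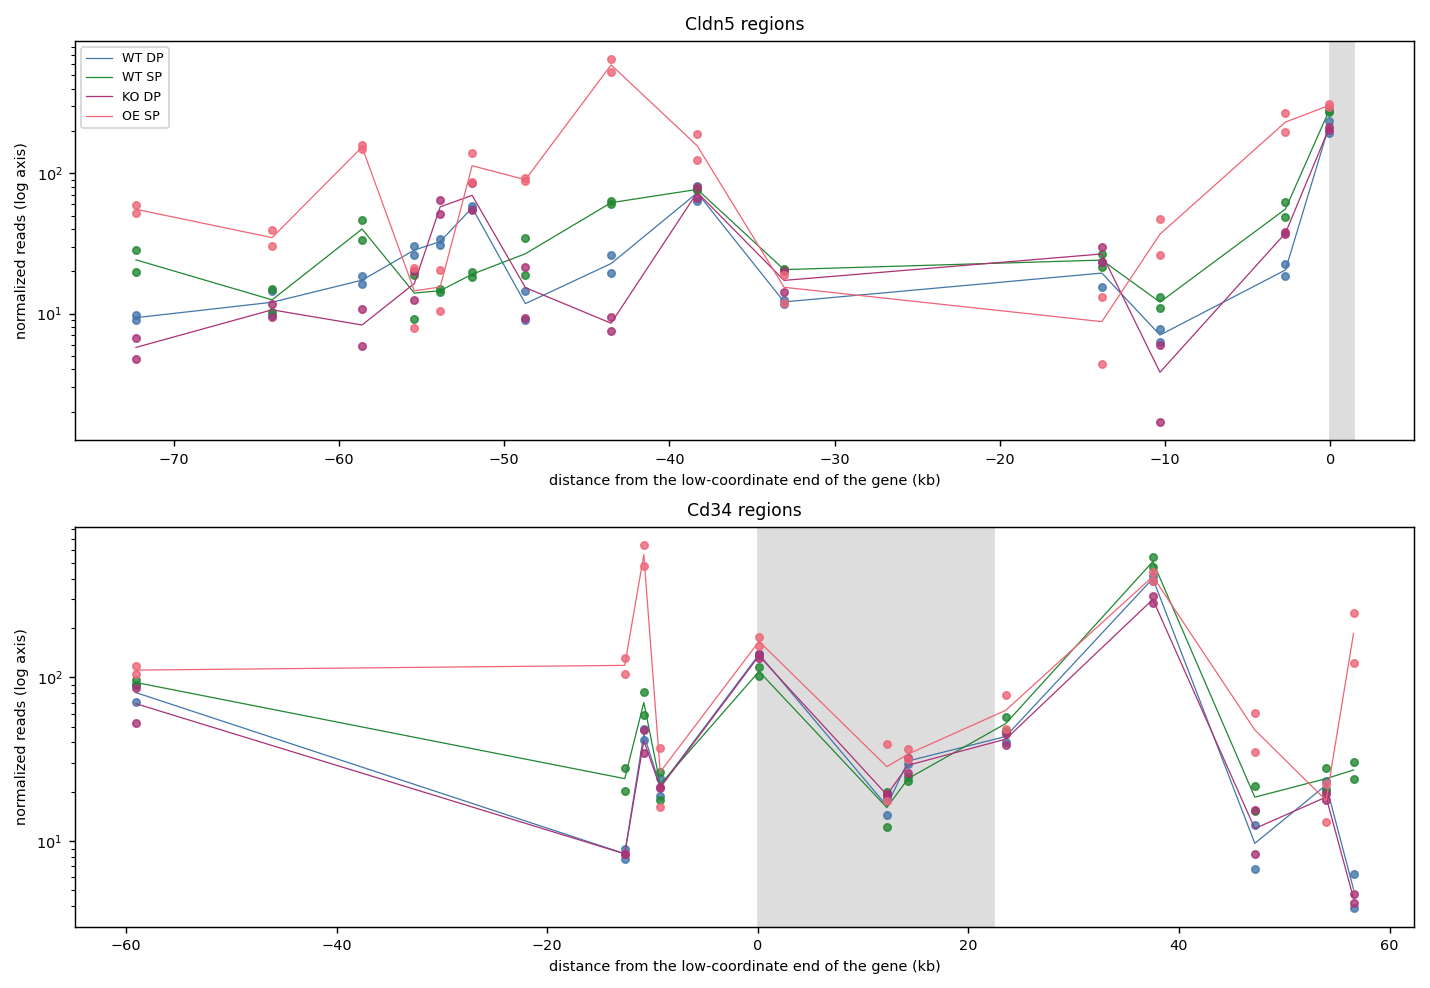
Normalized reads (log axis) of the 14 Cldn5 regions and the 12 Cd34 regions by distance in kb from the low-coordinate end of each gene, with the gene in grey, points for libraries and lines joining group means. In OE SP the flank of Cldn5 peaks 43525 bp before the gene at 533 and 656 and that of Cd34 peaks 10819 bp before it at 480 and 641, while the groups lie close together at the start of each gene.

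Cd34, a sialomucin of endothelial and blood progenitor cells, lies on chromosome 1 from 194938821 to 194961292. The region at its start, 194938745 to 194939145, shares 126 bases with the promoter shown. It measured 139 and 137 in the WT DP libraries, 116 and 101 in the WT SP libraries, 139 and 132 in the KO DP libraries, and 155 and 176 in the OE SP libraries. It rose in OE SP against WT SP by 0.59 (SE 0.17, adjusted p = 0.0136), a call lost without WT SP replicate 2 and with the compared groups alone. WT SP was the lowest group there.

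As at Cldn5, regions away from the start changed more. The region 10819 bp before the gene measured 48.5 and 41.3 in the WT DP libraries, 59.0 and 81.3 in the WT SP libraries, 34.4 and 47.5 in the KO DP libraries, and 480 and 641 in the OE SP libraries (2.91 in OE SP, adjusted p = 5.72e-06). The region 12632 bp before it rose in WT SP from 7.77 and 8.98 to 20.4 and 27.8 (1.11) and in OE SP to 105 and 131 (2.09). The call in WT SP was lost with DESeq2 and on leaving out either WT DP library or WT SP replicate 2. On the other side, 34112 bp beyond the gene, a region with 3.88 and 6.29 in the WT DP libraries and 4.20 and 4.75 in the KO DP libraries reached 30.5 and 23.8 in the WT SP libraries and 122 and 248 in the OE SP libraries. Both of these regions stayed under 10 in each WT DP and KO DP library. Of the 12 Cd34 regions, 5 rose and 0 fell in OE SP, against a neighbourhood where 2 of 73 other regions within 1 Mb rose and 36 fell. That neighbourhood was unlike those of the other member genes. Its median lay -0.55 from that of all regions, and theirs lay between -0.14 (Esam) and 0.16 (Plvap) from it.

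Emcn encodes endomucin, a sialomucin of capillary and venous endothelium, on chromosome 3 from 137341062 to 137431069. Its 10 regions had low values, with a sum per library of 115 to 150 in the wild-type libraries. The region at its start, 137340906 to 137341306, which shares 222 bases with the promoter shown, measured 8.74 and 10.8 in the WT DP libraries, 6.11 and 10.9 in the WT SP libraries, 8.40 and 3.57 in the KO DP libraries, and 35.7 and 59.1 in the OE SP libraries. WT SP overlapped with WT DP and with KO DP, and OE SP stood apart (1.94, SE 0.33, adjusted p = 0.00052). A region 47731 bp before the gene went from 5.09 and 7.93 in the WT SP libraries to 48.9 and 68.3 in the OE SP libraries (2.46, adjusted p = 5.65e-05). Of the 9 tested regions, 4 rose and 3 fell in OE SP, and none was called in WT SP or KO DP. The 4 that rose had group means under 10 in WT DP, WT SP and KO DP. They therefore reached the mean of 10 needed for testing only through OE SP, the group in which they were high. The 1 region left out for its low mean measured 16.8 and 28.9 in the OE SP libraries and 1.94 to 7.13 in the other libraries.

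Plvap encodes the diaphragm protein of fenestrae and caveolae, on chromosome 8 from 71497753 to 71511806. At the high-coordinate end, the region 71511638 to 71512038 measured 32.0 and 36.8 in the WT DP libraries, 64.1 and 80.3 in the WT SP libraries, 68.8 and 64.2 in the KO DP libraries, and 203 and 369 in the OE SP libraries. KO DP overlapped with WT SP here and not with WT DP. The changes were 0.96 in WT SP (adjusted p = 0.0276), lost with DESeq2 and on leaving out any wild-type or KO DP library, and 1.86 in OE SP (adjusted p = 0.000128). In KO DP the change of 0.86 was not called (adjusted p = 0.0887), but it was after each rescaling (0.90 to 0.93), with edgeR (1.03 on its own log2 scale) and with the compared groups alone. Toward the other end, the region at 71499774 fell in OE SP from 158 and 147 to 24.8 and 63.1 (-1.80). The fall at the low-coordinate end itself, from 116 and 121 to 43.8 and 102, just passed (-0.77, adjusted p = 0.0422) and was lost under 13 alternatives.

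The 1 member called higher in KO DP lay inside Plvap. The region at 71503848 to 71504248, which also lies in the span of Gm46041, held 116 reads over both KO DP libraries and 1 over both WT DP libraries, a 122-fold difference (95% counting interval 21.5 to 4873). It measured 60.5 and 52.3 in the KO DP libraries and 0 to 2.19 in the other 6 libraries (3.49, SE 0.29, adjusted p = 5.53e-05). This call held in every alternative fit tried, which included testing without the filter on low regions. With the filter, the region reached the mean needed for testing only through KO DP, the group in which it was high. It no longer counts as a member when regions go to the nearest gene end or when those inside another gene are left out. KO DP then had 0 rises. Within 1 Mb of Plvap, 25 of 280 other regions rose in KO DP and 5 fell, and their median lay 0.25 above that of all regions. Whether the surrounding stretch or the line took part in the values at Plvap was not tested.

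Robo4, a roundabout receptor that stabilises vessels, lies on chromosome 9 from 37401902 to 37414023. The region at its start, 37401753 to 37402153, which shares 269 bases with the promoter shown, measured 101 and 86.2 in the WT DP libraries, 86.5 and 67.4 in the WT SP libraries, 79.8 and 76.1 in the KO DP libraries, and 387 and 438 in the OE SP libraries. WT SP overlapped with WT DP and with KO DP, and OE SP lay far above them (2.36, SE 0.19, adjusted p = 5.81e-06). The region 1135 bp before the gene went from 11.2 and 6.94 in the WT SP libraries to 51.8 and 51.2 in the OE SP libraries (2.02). No Robo4 region was called in WT SP or KO DP, and the 2 regions inside the gene away from its ends were called in none of the 3 comparisons.

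Ecscr encodes an endothelial surface protein that regulates chemotaxis and signalling, on chromosome 18 from 35713086 to 35722413. It had 2 regions, and both were called in WT SP and in OE SP. The region at the high-coordinate end, 35722195 to 35722595, measured 70.9 and 81.7 in the WT DP libraries, 153 and 186 in the WT SP libraries, 73.0 and 73.7 in the KO DP libraries, and 358 and 480 in the OE SP libraries. It rose in WT SP by 1.10 (adjusted p = 0.00381, lost on leaving out replicate 1 of WT DP or replicate 2 of WT SP) and in OE SP by 1.27 (adjusted p = 0.000255). The region inside the gene at 35720678 was highest in WT SP, at 78.4 and 71.4 against 42.7 and 41.3 in the WT DP libraries (0.76) and 27.0 and 23.6 in the OE SP libraries (-1.40). The rise in WT SP at this region was lost on median-of-ratios rescaling, on rescaling on the 10000 highest regions, with DESeq2 and on leaving out any wild-type or KO DP library.

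**Figure D4:**
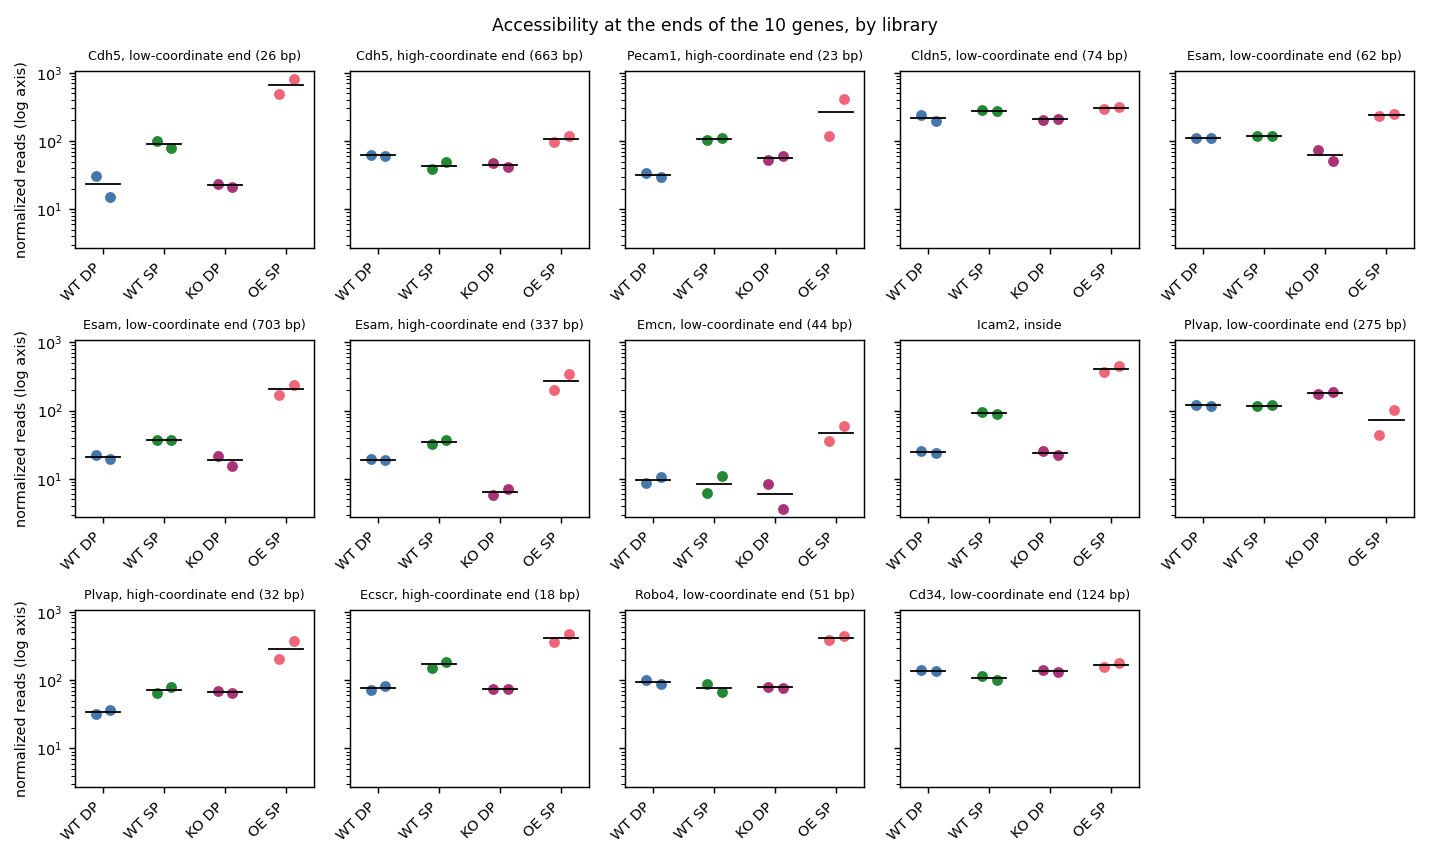
Normalized reads (log axis) by library at the 13 regions within 1 kb of an end of a gene, with the distance from that end in bp, and at the region inside Icam2, which had no such region. Points are the 2 libraries of a group and black lines are their means, and OE SP is the highest group at 13 of the 14 regions, the exception being the low-coordinate end of Plvap.

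By position, the rises in OE SP were most frequent at gene ends. Of the 13 regions within 1 kb of an end of a member gene, 10 rose and 1 fell in OE SP, whereas 6.87% of the 17785 gene-end regions of all protein-coding genes rose and 20.7% fell. Their median change was 1.27, against -0.16 for gene-end regions of all genes. Of the 31 other regions inside the genes, 8 rose and 7 fell (17.3% and 32.8% of such regions genome-wide). Of the 65 regions on the flanks, 26 rose and 11 fell (17.6% and 32.5% genome-wide). In WT SP, 4 of the 13 gene-end regions rose and 0 fell (3.27% and 1.88% genome-wide). The 6 falls in WT SP all lay on flanks, between 16277 and 86174 bp from the gene.

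Summed over its regions, each gene had more normalized reads in each OE SP library than in each WT SP library, except Pecam1 and Plvap, where the groups overlapped. The sum for Cldn5 was 1807 and 1847 in the OE SP libraries against 675 and 687 in the WT SP libraries, 557 and 521 in the WT DP libraries, and 551 and 568 in the KO DP libraries. That for Ecscr was 385 and 503 in the OE SP libraries, 231 and 258 in the WT SP libraries, 114 and 123 in the WT DP libraries, and 104 and 103 in the KO DP libraries. WT SP lay above WT DP in each library for 9 genes, and Robo4 lay lower (207 and 180 against 241 and 215). The median change of all regions in WT SP was 0.11 as deposited and -0.09 after rescaling on the 10000 highest regions. Higher sums of deposited values in WT SP are therefore not a trait of these genes alone. These sums are descriptions and were not tested.

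In the knockout line, the 5 falls lay at Cdh5 (2), Esam (2) and Cldn5 (1), and none of them held on leaving out each library in turn. The lowest adjusted p among them was at 104050959, 50454 bp before Cdh5, which measured 45.3 and 45.2 in the KO DP libraries against 106 and 110 in the WT DP libraries (-1.17, SE 0.19, adjusted p = 0.00528). Around Cdh5, 14 of 166 other regions within 1 Mb also fell in KO DP and 0 rose, with a median -0.25 from that of all regions. Around Esam 1 of 132 fell and 0 rose, and around Cldn5 4 of 160 fell and 0 rose. The 36 Cdh5 regions had a median change of -0.38 in KO DP. Their sum was 1661 and 1551 in the KO DP libraries, 2131 and 2100 in the WT DP libraries. The part of the chromosome 8 stretch in the values at Cdh5 was not tested.

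Other genes of the same kinds were counted for comparison. For 24 other endothelial surface genes, among them Tie1, Tek, Cd93 and Egfl7, 80 of 269 regions rose and 76 fell in OE SP, that is 29.7% and 28.3%, with a median change of -0.01. In WT SP 34 rose and 20 fell (12.6% and 7.43%), and in KO DP 6 and 4 (2.23% and 1.49%). A region of Tie1, an endothelial receptor related to TIE2, rose in OE SP from 35.6 and 26.8 to 312 and 461 (3.42), while a region of Cd93, a lectin-like endothelial receptor, fell from 270 and 300.4 to 43.0 and 35.5 (-2.72). Of 24 junction genes that are not confined to endothelium, such as Cdh1, Cdh2 and Tjp1, 23 had a region. Of their 453 regions, 83 rose and 135 fell in OE SP (18.3% and 29.8%), 35 rises and 37 falls were called in WT SP (7.73% and 8.17%), and 11 rose and 10 fell in KO DP (2.43% and 2.21%). These shares are near those of all regions. Cdh2, the N-cadherin gene, had 24 falls and 4 rises among 41 regions in OE SP.

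**Figure D5:**
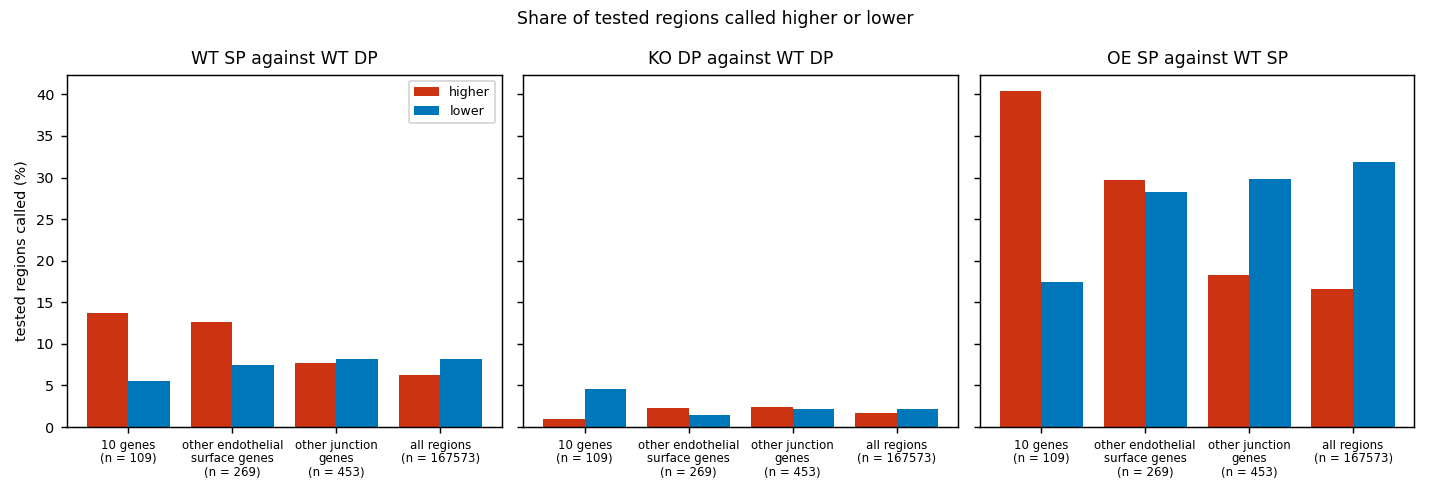
Percent of tested regions called higher (red) or lower (blue) in each comparison for the 10 genes, the 24 other endothelial surface genes, the 24 other junction genes and all regions, with the number of tested regions under each pair of bars. In OE SP against WT SP the bars for the 10 genes are 40.4% higher and 17.4% lower, and those for all regions are 16.6% and 31.9%.

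Loci of marker genes were counted in the same comparisons, to be read beside the 16.6% and 31.9% of all regions that rose and fell in OE SP and the 6.2% and 8.12% in WT SP. At 6 endothelial marker loci, which include Cdh5 and Pecam1, 51 of 153 regions rose and 39 fell in OE SP (33.3% and 25.5%), 24 rises and 9 falls were called in WT SP (15.7% and 5.88%), and 2 rose and 4 fell in KO DP. At 6 blood marker loci, 13 of 39 rose and 6 fell in OE SP (33.3% and 15.4%), 9 rises and 2 falls were called in WT SP (23.1% and 5.13%), and none was called in KO DP. At 4 cardiac marker loci, 2 of 43 rose and 25 fell in OE SP (4.65% and 58.1%), 1 rose and 2 fell in WT SP, and 1 rose and 0 fell in KO DP. The 4 paraxial mesoderm loci, with 11 rises and 14 falls of 47 in OE SP (23.4% and 29.8%), and the 4 epithelial and endodermal loci, with 14 and 20 of 78 (17.9% and 25.6%), were nearer to all regions. In WT SP these had 2 rises and 7 falls, and 4 and 5, and in KO DP 0 and 0, and 0 and 1. Blood cells express Cd34, Pecam1, Esam and Icam2 too, and the part of the makeup of the sorted cells in the values was not tested.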

How the data were processed

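ATAC-seq was done on 50000 sorted live cells per library by a modified Omni-ATAC procedure with 75 bp paired ends, per the labels' protocols. The submitters' processing notes name DiffBind 3.14.1, MACS2 and Bowtie2, and build mm10. Not given in the sources used here are their settings, any Tn5 shift, duplicate removal and the origin of the scaling factors. The deposited values are a signal, the authors' normalized reads per region, and dividing each library by the value of 1 read gave whole reads for 100% of them (tolerance 0.01 reads), which edgeR and DESeq2 took as input.

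Regions were assigned to RefSeq protein-coding spans (GRCm38.p6, the assembly of mm10), and tied genes all counted. Regions were tested if their mean over all libraries reached 10 (167573 regions), which a low region could do through 1 group alone. Tests were made on log2(value + 5) with limma 3.58.1 (R 4.3.3), with 4 group means, an empirical Bayes trend and two-sided p-values. Log2 changes are on that scale, which understates changes of low regions, except those given for edgeR, which are on its own scale. edgeR 4.0.16, DESeq2 1.42.0 and the other alternatives are given at the end. The limma procedure was also run on simulated data in which all groups had the same spread. That run does not cover the larger spread of OE SP. Counting intervals cover counting error only. Named regions are, for each gene, the gene-end region of highest mean and the region of lowest adjusted p in each comparison; others are named where a count or pattern rests on them and were chosen after their values were seen. The members and lists were chosen with earlier results of these data known. Promoter sequences are from RefSeq (GRCm38.p6).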

Additional observations from a re-analysis of the deposited data

How the results depend on the processing

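Counts are given as rises and falls at an adjusted p under 0.05. With the compared groups alone, the members had 30 and 13 in WT SP (22.4% and 15.5% of all regions) and 10 and 16 in KO DP (8.89% and 13.1%), the other surface genes 79 and 38, and 25 and 29, and the other junction genes 111 and 65, and 44 and 48. With DESeq2 the members had 1 fall in KO DP and 8 in OE SP, the surface genes 19 rises in WT SP, 2 falls in KO DP and 43 falls in OE SP, and the junction genes 15 rises in WT SP, 6 falls in KO DP and 78 falls in OE SP. Of all regions, DESeq2 called 2.78% higher in WT SP, 0.819% lower in KO DP and 17.2% lower in OE SP. With edgeR there were 4 rises of members and 17 of junction genes in KO DP, and 31 falls of surface genes in WT SP. Of all regions, edgeR called 3.62% higher in KO DP and 11.8% lower in WT SP. Member rises in KO DP were 3 after median-of-ratios rescaling, 4 after quantile normalization, 3 after rescaling on the 10000 highest regions and 0 by nearest gene end. Of all regions, 2.58%, 3.46% and 3.12% rose in KO DP after these rescalings, in that order. Rescaling on the 10000 highest regions gave 36 falls of surface genes in WT SP, where 12.4% of all regions fell. Falls of surface genes in KO DP were 2 with a pseudocount of 1, 7 with 20 and 9 after quantile normalization. Of all regions, 1.58%, 3.2% and 3.39% fell in KO DP under those settings, in that order. Quantile normalization also gave 17 rises of junction genes in KO DP. Within 10 kb of the gene, where fewer regions count, the members had 0 falls in WT SP, 2 in KO DP, and 24 rises and 10 falls in OE SP, and the junction genes 23 falls in WT SP and 3 in KO DP.

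Leaving out 1 library at a time, member rises and falls ranged from 4 to 29 and 0 to 13 in WT SP, 1 to 10 and 0 to 17 in KO DP, and 36 to 50 and 13 to 23 in OE SP. Surface genes ranged from 8 to 76 and 9 to 38, 0 to 23 and 1 to 29, and 62 to 101 and 52 to 88. Junction genes ranged from 6 to 111 and 11 to 65, 3 to 46 and 2 to 47, and 63 to 101 and 97 to 179. The high ends in WT SP and KO DP came without an OE SP library, where the shares of all regions called were highest too. These ranges describe the fits and are not results about the genes. A group left with 1 library is assumed to vary like the others. No called value of a named region changed sign. Libraries of the same replicate number did not deviate together (correlations 0.0099, 0.013 and -0.00051). Replicate numbers are those of the titles, and the KO DP library names carry other numbers. Whether libraries were made together cannot be read from these correlations. With the replicate block, 21, 6 and 64 members were called, against 21, 6 and 63. With 2 libraries a group, a median of 40.0 reads per member limits what could be called.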
